A study of Mus musculus with 27 samples.

Results

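The homeostatic and core microglia genes are a set of 34 named genes, picked by gene symbol out of the 54532 genes of the read count table. Of these, 21 belong to the homeostatic signature of resting microglia and 13 are core leukocyte genes that microglia share with other blood-derived immune cells. The cells were mixed glia, a co-culture of astrocytes, oligodendrocyte-lineage cells and microglia, grown from the cortex of C57BL/6 mouse pups of postnatal days 3 to 6 and kept 14 days in vitro. All groups were harvested after the same 24 h treatment period, and polyadenylated RNA was sequenced without strand information. There are 27 libraries, 3 in each of 9 groups, and each of the 2 experiments has untreated cultures of its own. Experiment 1 held untreated cultures, LPS at 100 ng/mL, LPS with bryostatin at 50 nM, LPS with IFN-gamma at 20 ng/mL, and LPS, IFN-gamma and bryostatin together. Experiment 2 held untreated cultures, bryostatin alone at 50 nM, IL-4 at 20 ng/mL, and IL-4 with bryostatin. LPS is a bacterial cell wall component, IFN-gamma and IL-4 are T cell cytokines, and bryostatin-1 is a marine macrolide that modulates protein kinase C. Whether the replicates came from different cultures or litters is not given in the labels, so the p-values below rest on a spread between libraries that may be technical.

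Resting microglia keep a gene programme of sensing receptors, transporters and transcription factors that depends on TGF-beta signals from neighbouring cells and on the factor Sall1. Inflammatory stimuli are known to turn this programme down, while core leukocyte genes under the control of the lineage factor PU.1 (Spi1) stay on. Some members are not made by microglia alone: astrocytes also make Mertk and Adgrg1, oligodendrocytes Bin1, neurons Mef2c and endothelial cells Ecscr. A bulk level is therefore a sum over the cells of a well.

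Because many members moved together, the RefSeq promoter windows of GRCm38.p6 were searched for 4 short motifs on both strands. Each window spans 250 bases before and 50 bases after a gene start, and 38 windows matched the 34 members by symbol. None of the motifs is contained in another. The PU.1 letters GAGGAAGT were present in 4 of 38 member windows (10.5%) and in 3.2% of all 32851 windows. The SMAD letters CAGACA, read by the TGF-beta pathway, were in 36.8% and 21% of windows. The NF-kB letters, GGGA and CC separated by any 4 bases and read by the main factor downstream of LPS, were in 18.4% and 20.7%. The interferon response letters, GAAA repeated after any 2 bases, were in 2.63% and 3.44%, Aif1 being the 1 member with them. These shares describe letters in a window and say nothing of binding, and no link between letters and changes was tested. Of the 4 members with the PU.1 letters, Slco2b1, Inpp5d and Hpgds fell with LPS, while Cyth4 showed no change past the threshold used below. The stretches below carry the PU.1 letters of Inpp5d and Hpgds, which both fell with LPS, the SMAD letters of Fcrls and the NF-kB letters of Slco2b1, which fell far more, and those of Mef2c, which bryostatin raised with LPS. Each shows 60 bases upstream of a start, 5′ to 3′ on the gene's strand, with the match in capitals. They lie at chr1:87620252-87620311 (plus strand), chr6:65144746-65144805 (minus), chr3:87263581-87263640 (minus), chr7:99706843-99706902 (minus) and chr13:83573412-83573471 (plus). In Slco2b1 and Mef2c the match lies on the opposite strand.
Inpp5d: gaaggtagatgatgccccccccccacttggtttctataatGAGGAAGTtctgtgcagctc
Hpgds: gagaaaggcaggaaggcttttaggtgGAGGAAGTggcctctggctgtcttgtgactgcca
Fcrls: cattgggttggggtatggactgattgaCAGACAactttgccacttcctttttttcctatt
Slco2b1: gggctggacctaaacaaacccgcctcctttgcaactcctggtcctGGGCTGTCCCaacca
Mef2c: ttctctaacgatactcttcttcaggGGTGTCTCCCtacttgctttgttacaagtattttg

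Total counts ran from 17230058 to 28687281 per library. Libraries that stand apart come first, and the counts of members called are given with and without them. The untreated library of experiment 1 labelled replicate 1 correlated with 2 untreated libraries of experiment 2 at r = 0.995 and with its own group at 0.965 and 0.966. The untreated library of experiment 2 labelled replicate 1 correlated with those of experiment 1 at 0.98 and 0.969 and with its own group at 0.954 and 0.943. Each of these libraries thus goes against its label and resembles the untreated cultures of the other experiment. An exchange between the experiments was not tested, the labels were kept, and every untreated mean and every fold change against untreated cultures includes these libraries unless stated. Sox10, a factor of the oligodendrocyte lineage, was at 0.161 CPM in that library of experiment 1 against 33.4 and 30.1 CPM, and at 39.1 CPM in that of experiment 2 against 0.281 and 0.228 CPM, and no treated library of experiment 2 exceeded 0.483 CPM. Members carried the same split: Runx1 was at 22.7 CPM in untreated replicate 1 of experiment 1 against 11.3 and 12.3, and at 12.2 CPM in that of experiment 2 against 20.6 and 21.9. Untreated replicate 1, bryostatin replicate 2 and IL-4 with bryostatin replicate 2 of experiment 2 also deviated from their groups by gene length, with Spearman correlations across genes of -0.506, -0.661 and -0.596. The 13 members of 5 kb or longer lay 0.39, 0.16 and 0.19 log2 units under their group in these libraries (median). In experiment 1, LPS, IFN-gamma and bryostatin replicate 3, LPS with IFN-gamma replicate 1 and LPS with bryostatin replicate 1 deviated similarly, at -0.586, -0.572 and -0.47, with the long members within 0.06 log2 units of their group; these were left out one at a time. The 10 astrocyte markers summed to at least 4810 CPM in every library. Of other blood cells, the 8 lymphocyte markers summed to at most 0.763 CPM in any library.

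Untreated levels per transcript length, as the deposited FPKM give them, ranged widely among the members. Fcrls, an Fc receptor-like scavenger receptor, was highest in experiment 1 at 92.2 FPKM, ahead of the lysosomal protein Laptm5 at 53.3, the secreted ribonuclease Rnase4 at 51.1 and the fractalkine receptor Cx3cr1 at 41.2. Tmem119, a microglial surface protein, was eighth at 22.8 FPKM. Siglech, a sialic acid-binding lectin, and Slc2a5, a fructose transporter, were lowest at 0.207 and 0.076 FPKM. In experiment 2 the same 3 genes led, Fcrls at 98, Laptm5 at 62.7 and Rnase4 at 46.8 FPKM, and Siglech and Slc2a5 were again last. These 2 genes held 40 and 15 counts over the untreated libraries of experiment 1. Slc2a5 passed the filter on low counts in neither experiment and Siglech in experiment 2 only, so 32 members were tested in experiment 1 and 33 in experiment 2.

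LPS lowered most homeostatic members and split the core leukocyte members. A member is called here at an adjusted p under 0.05 in edgeR's quasi-likelihood test, with Benjamini-Hochberg adjustment over all 16073 genes tested in experiment 1. Of 32 members tested, 22 fell and 8 rose with LPS, where 18.8% of all genes fell, 19.5% rose and 38.4% were called either way. Among the 19 homeostatic members 17 fell and 2 rose, with a median log2 fold change of -1.09 against -0.01 over all genes. Among the 13 core members 5 fell and 6 rose, with a median of 0.24. Lower by over 2-fold were 12 members and 5.96% of all genes. All 22 members that fell and all 8 that rose had treated libraries outside the range of the untreated ones, as did 24.4% and 26.4% of all genes. In bulk RNA, fewer microglia in a well and less RNA per microglial cell cannot be told apart. Without untreated replicate 1, 28 members were called.

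**Figure D1:**
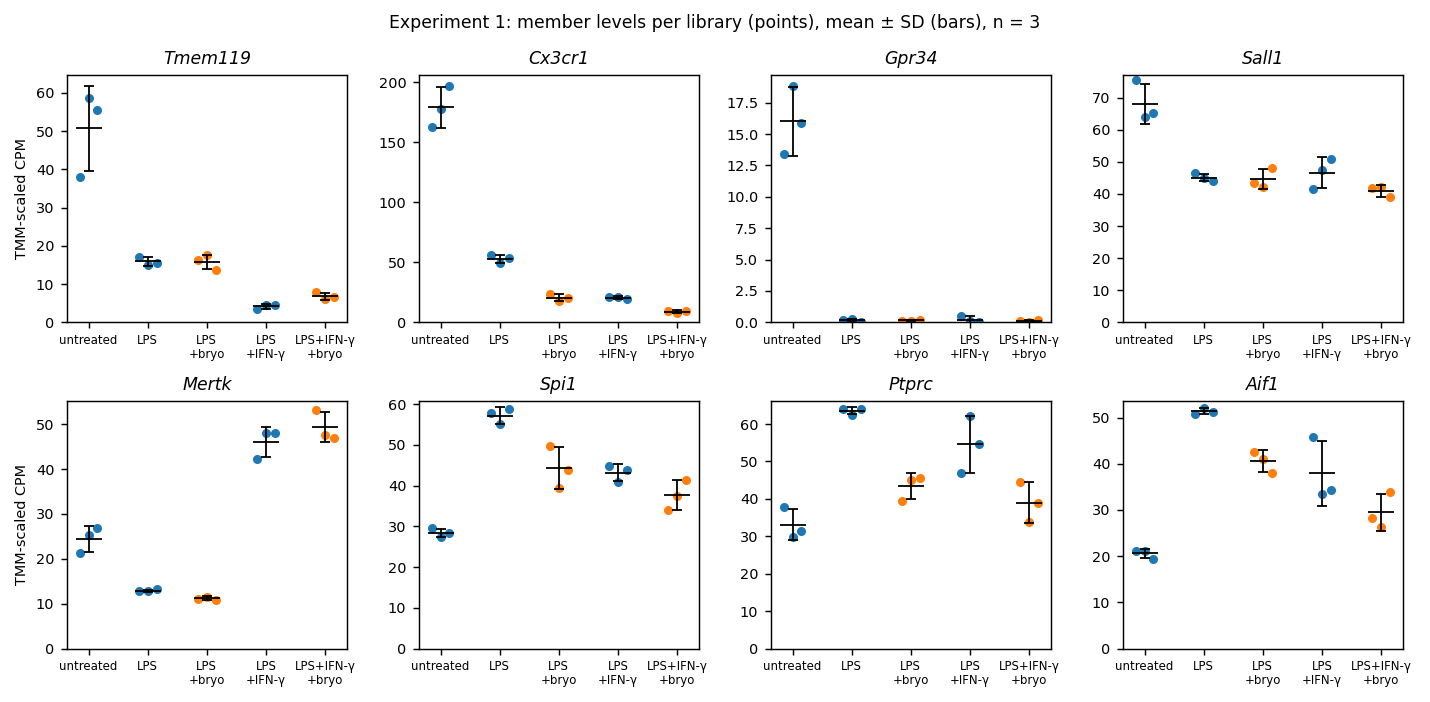
TMM-scaled CPM of 8 members in each library of experiment 1 (points), with the group mean and SD (n = 3); orange points are cultures with bryostatin. Tmem119, Cx3cr1, Gpr34 and Sall1 are highest in untreated cultures, while Spi1, Ptprc and Aif1 are highest with LPS and Mertk is highest where IFN-gamma was given.

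Of the homeostatic receptors and surface proteins, 8 of 9 tested fell with LPS. Gpr34, a lysophosphatidylserine receptor (ENSMUSG00000040229, mm10 chromosome X, 13632089 to 13640858, plus strand), was at 13.4, 18.8 and 15.9 CPM untreated and at 0.165, 0.237 and 0.0546 CPM with LPS. Its libraries did not overlap, and the log2 fold change was -6.62 ± 0.51 (SE; adjusted p = 3e-08). Fcrls (ENSMUSG00000015852, chromosome 3, 87250758 to 87263738, minus strand) was at 151, 249 and 223 CPM untreated and at 30.3, 26.7 and 28.7 CPM with LPS. That is a change of -2.86 ± 0.17 (adjusted p = 1.9e-09), with the lowest untreated library well above the highest treated one. Cx3cr1 (ENSMUSG00000052336, chromosome 9, 119901616 to 120069879, minus strand) went from 163, 178 and 197 CPM to 55.8, 49.3 and 53.4 CPM, a change of -1.76 ± 0.11 (adjusted p = 1.1e-09). Tmem119 (ENSMUSG00000054675, chromosome 5, 113793729 to 113800516, minus strand) went from 38.1, 58.7 and 55.6 CPM to 17.1, 15 and 15.6 CPM. Its change was -1.68 ± 0.16 (adjusted p = 2.7e-07), and untreated replicate 1 was the lowest of its group. Tgfbr1, the type I TGF-beta receptor, fell by 1.51 ± 0.14 on the log2 scale, Selplg, the P-selectin ligand, by 1.09 ± 0.11, and the adhesion receptor Adgrg1 by 0.54 ± 0.08. Mertk, a receptor kinase for the clearance of dead cells, was at 21.2, 25.3 and 26.8 CPM untreated and at 12.9, 12.8 and 13.2 CPM with LPS, a change of -0.92 ± 0.1 (adjusted p = 1.5e-06). Ecscr, an endothelial and microglial surface protein, was the exception among 9 tested receptors: it rose from 1.08 ± 0.473 to 5.97 ± 0.451 CPM (mean ± SD, n = 3; log2 fold change 2.46 ± 0.26). Siglech had 0 counts in all 3 LPS libraries against 40 untreated, at least 12.8-fold lower with 3 counts over the group as the floor.

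Transporters, enzymes and secreted proteins were the next group, in which 7 of 8 tested members fell and 1 rose. Slco2b1, an organic anion transporter (chromosome 7, 99657804 to 99711340, minus strand), was at 19.4, 31.3 and 33.1 CPM untreated and at 0.441, 0.522 and 0.218 CPM with LPS. Capn3, a calcium-activated protease, was at 4.29, 7.95 and 6.25 CPM untreated and at 0, 0.19 and 0.109 CPM with LPS. Both thus fell to near the detection limit, by 6.11 ± 0.34 and 5.8 ± 0.59 on the log2 scale (adjusted p = 4e-10 and 8.8e-07). Crybb1, a crystallin of immature microglia, was at 1.34, 1.28 and 0.811 CPM untreated and at 0.165, 0.19 and 0.109 CPM with LPS, without overlap (-2.82 ± 0.66, adjusted p = 0.0029). Olfml3, a secreted olfactomedin-like protein, fell by 1.14 ± 0.1 and Rnase4 by 0.87 ± 0.16 on the log2 scale. The changes of Golm1, a Golgi protein (-0.36 ± 0.09), and Bin1, a membrane-bending adaptor (-0.26 ± 0.08), were smaller. Lpcat2, which makes platelet-activating factor, rose by 0.39 ± 0.09. Both homeostatic transcription factors fell. Sall1, the zinc-finger factor that marks microglial identity, was at 75.4, 63.9 and 65.1 CPM untreated and at 46.4, 44.9 and 44.1 CPM with LPS (-0.59 ± 0.09, adjusted p = 6.3e-05). Mef2c changed by -0.29 ± 0.1 (adjusted p = 0.036), a call lost in 7 of 13 alternatives, among them without untreated replicate 1. The call of Bin1 was lost in 4, that one among them.

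Core transcription factors did not fall with LPS. Spi1, which encodes PU.1 (chromosome 2, 91082390 to 91115756, plus strand), was at 29.5, 27.5 and 28.3 CPM untreated and at 57.8, 55 and 58.9 CPM with LPS, so that every LPS library was above every untreated one (1.01 ± 0.09, adjusted p = 2.7e-07). Runx1, a haematopoietic factor linked to microglial proliferation and amoeboid shape, rose by 1.69 ± 0.21, and Lmo2, a bridging protein of haematopoietic transcription complexes, by 0.41 ± 0.12. Ikzf1, the lymphoid factor Ikaros, was at 16 ± 1.4 CPM untreated and 18.9 ± 2.71 CPM with LPS and was not called (0.24 ± 0.14, adjusted p = 0.21).

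Among the 9 core surface and signalling proteins 3 rose and 5 fell with LPS. Adgre1, which encodes the macrophage marker F4/80 (chromosome 17, 57358691 to 57483527, plus strand), was at 63.8, 68.1 and 71.5 CPM untreated and at 446, 406 and 438 CPM with LPS. This was the largest rise of any member, 2.67 ± 0.1 on the log2 scale (adjusted p = 2.9e-12). Aif1, which encodes the actin-bundling protein Iba1, was at 21.1, 21.2 and 19.4 CPM untreated and at 50.8, 52 and 51.3 CPM with LPS (1.32 ± 0.12, adjusted p = 1.7e-07). Ptprc, which encodes the leukocyte phosphatase CD45, was at 37.9, 29.9 and 31.5 CPM untreated and at 64.1, 62.4 and 63.9 CPM with LPS (0.94 ± 0.12, adjusted p = 1e-05). None of these 3 overlapped between groups. Hpgds, the haematopoietic prostaglandin D synthase, fell by 1.75 ± 0.15, the actin regulator Abi3 by 1.08 ± 0.3, the checkpoint receptor Vsir by 0.81 ± 0.08, the lipid phosphatase Inpp5d by 0.79 ± 0.1 and Laptm5 by 0.7 ± 0.07. Cyth4, an exchange factor for ARF proteins, was not called (0.11 ± 0.1, adjusted p = 0.38).

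Markers of other cells moved with LPS too. The 10 astrocyte markers summed to between 11600 and 14700 CPM untreated and between 8910 and 9440 CPM with LPS, with 5 lower and 2 higher. The 7 border macrophage markers summed to 65.6 to 77.6 CPM untreated and 82.1 to 93.4 CPM with LPS, and 1 of them was at 0 in all LPS libraries. Within that list Ms4a7 rose by 1.18 ± 0.16 while Mrc1, the mannose receptor, fell by 2.88 ± 0.27. The 9 markers of monocytes, neutrophils and dendritic cells summed to 0.954 to 2.12 CPM untreated and 10.2 to 17.2 CPM with LPS, of which Plac8 made 7.54 to 13.6 CPM, and 3 were at 0. The 8 pericyte and fibroblast markers summed to 836 to 2150 CPM untreated and 3260 to 3830 CPM with LPS. The part of these in the members' changes was not tested.

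Adding IFN-gamma to LPS took Tmem119, Fcrls, Cx3cr1 and 4 other homeostatic members lower than LPS alone and took Mertk and Bin1 higher. Against untreated cultures 22 of 32 members fell and 9 rose, where 28.6% of all genes fell, 29.5% rose and 58.1% were called either way. Of 19 homeostatic members 15 fell and 3 rose (median log2 fold change -1.24), and of 13 core members 7 fell and 6 rose (median -0.59), with a median of -0.01 over all genes. Lower by over 2-fold were 14 members and 13.4% of all genes. Libraries lay wholly below the untreated ones for 22 members and 28% of all genes, and wholly above for 9 members and 30.3%. In this comparison and in LPS against untreated, which share their untreated libraries, 20 members were called lower in both, 7 higher in both and 2 in opposite directions. Without untreated replicate 1, 30 members were called.

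Direct comparison of LPS with IFN-gamma against LPS alone called 14 members, 12 lower and 2 higher, where 16.8% of all genes were lower, 19.2% higher and 36% called either way. Without untreated replicate 1 in the fit, 17 members were called. Libraries lay wholly below those of LPS for 15 members and 26.2% of all genes, and wholly above for 3 members and 26.1%. Tmem119 was at 3.42, 4.56 and 4.4 CPM with both agents, below all LPS libraries (15 to 17.1 CPM), a difference of -1.94 ± 0.18 (log2, adjusted p = 4.2e-07). Fcrls was at 9.23, 8.99 and 6.56 CPM, again below all LPS libraries (-1.79 ± 0.18, adjusted p = 2.2e-06). Cx3cr1 was at 21.3, 20.9 and 19.6 CPM (-1.36 ± 0.11, adjusted p = 1e-07). These 3 receptors thus stood at -3.62 ± 0.18, -4.65 ± 0.19 and -3.12 ± 0.11 against untreated cultures. Mertk went the other way, at 42.2, 48.1 and 48 CPM with both agents, above every LPS and every untreated library. The difference from LPS alone was 1.83 ± 0.1 (adjusted p = 1e-09) and that from untreated cultures 0.91 ± 0.09 (adjusted p = 4.8e-07). Bin1 was also higher, at 114 ± 12.1 CPM against 71.9 ± 1.23 CPM with LPS (0.66 ± 0.08) and 85.9 ± 6.86 CPM untreated (0.4 ± 0.08). Olfml3 (-0.93 ± 0.1), Adgrg1 (-0.66 ± 0.08), Golm1 (-0.62 ± 0.09) and Lpcat2 (-0.47 ± 0.09) were the other homeostatic members lower than with LPS alone.

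Some homeostatic members were already near 0 with LPS and were not called between the stimuli. Gpr34 was at 0.517, 0.125 and 0 CPM with both agents, overlapping the LPS libraries (difference 0.43 ± 0.84, adjusted p = 0.73), and stood at -6.19 ± 0.51 against untreated cultures. Slco2b1 was at 0.323, 0.125 and 0.191 CPM (-0.89 ± 0.58 against LPS, adjusted p = 0.26, and -7 ± 0.38 against untreated cultures). Capn3 held 1 count over the 3 libraries against 372 untreated, a ratio of 293 with an exact 95% counting interval of 52.3 to 11600, which covers counting error only. Siglech had 0 counts, at least 10.5-fold below untreated. Sall1, at 41.5, 47.5 and 50.9 CPM, overlapped the LPS libraries (0.05 ± 0.09, adjusted p = 0.72), and so did Tgfbr1, Selplg and Mef2c, none of them called.

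Of the 13 core members 5 were lower with both agents than with LPS alone, and none was higher by edgeR's test, by DESeq2 or at an unadjusted p under 0.05. Adgre1 was at 142, 179 and 168 CPM, between the untreated and the LPS libraries (-1.4 ± 0.1 against LPS, adjusted p = 1.5e-08). Ikzf1 was at 7.04, 10.1 and 8.09 CPM, below both the LPS libraries (16.3 to 21.7 CPM) and the untreated ones (-1.17 ± 0.15 against LPS, adjusted p = 1.7e-05). Spi1 was at 44.9, 40.8 and 43.9 CPM and Aif1 at 45.9, 33.5 and 34.4 CPM, both between the untreated and LPS levels without overlap (-0.41 ± 0.09 and -0.44 ± 0.12 against LPS, adjusted p = 0.0027 and 0.0071). Cyth4 was lower by 0.7 ± 0.1. Ptprc, at 47, 62.1 and 54.6 CPM, was not called (-0.22 ± 0.12, adjusted p = 0.17), and replicate 2 lay just under the lowest LPS library. The border macrophage markers summed to 21.1 to 28.1 CPM here, under the 82.1 to 93.4 CPM of LPS, with all 4 tested ones lower. Between LPS and LPS with IFN-gamma the astrocyte sum went from 8910 to 9440 CPM to 6790 to 7320 CPM and the oligodendrocyte lineage sum from 731 to 757 CPM to 380 to 428 CPM, with 5 of 10 and 3 of 9 tested markers lower. The pericyte and fibroblast sum went from 3260 to 3830 CPM to 1700 to 2900 CPM, and the sum of monocyte, neutrophil and dendritic cell markers from 10.2 to 17.2 CPM to 21.9 to 36.2 CPM. The part of these in the members' differences was not tested.

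**Figure D2:**
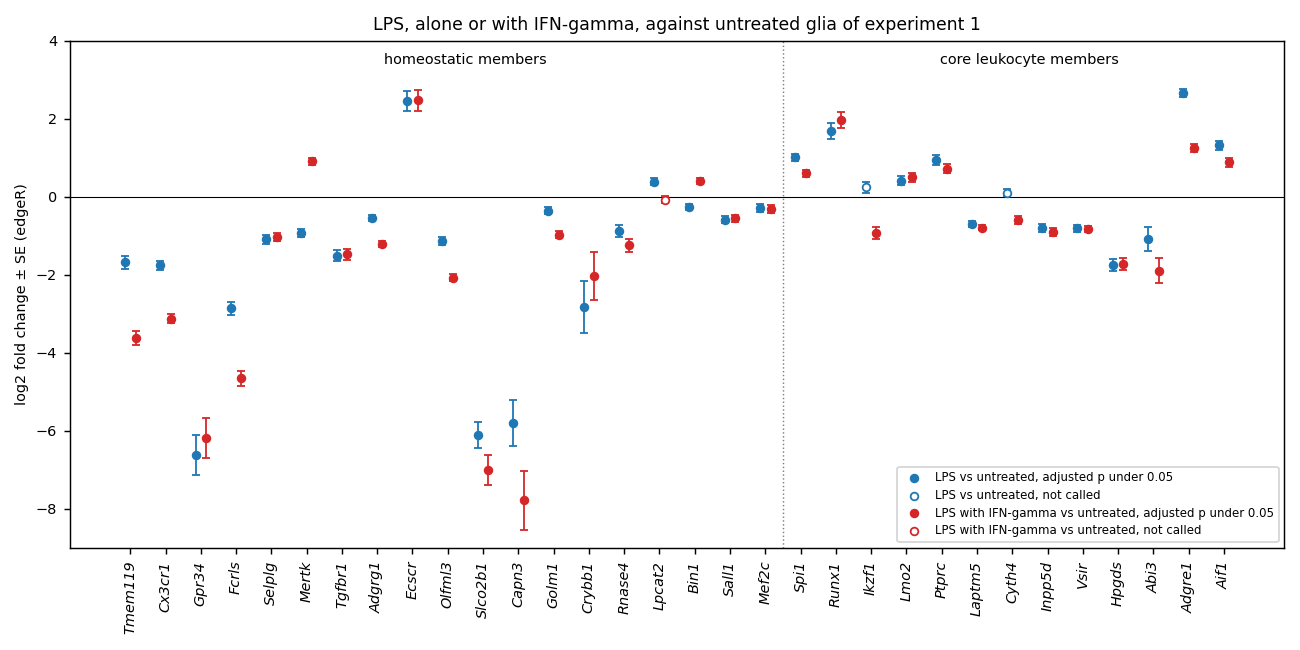
Log2 fold change ± SE (edgeR) of the 32 tested members for LPS (blue) and LPS with IFN-gamma (red) against the same untreated libraries; open points were not called. Gpr34, Slco2b1 and Capn3 lie below -5 with both stimuli, and Mertk and Bin1 lie on opposite sides of 0.

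Bryostatin given with LPS lowered Cx3cr1 further, raised Mef2c and lowered 5 core members, while the members that LPS had lowered most stayed near 0. It called 10 of 32 members, 8 lower and 2 higher, where 3.55% of all genes were lower, 3.35% higher and 6.89% called either way. Of 19 homeostatic members 3 were lower and 2 higher (median log2 fold change 0), and of 13 core members 5 were lower and none higher (median -0.35), with a median of 0 over all genes. At an unadjusted p under 0.05, and by DESeq2, 0 core members were higher as well. Without untreated replicate 1 in the fit, 13 members were called, and leaving out LPS replicate 1, LPS replicate 3 or LPS with bryostatin replicate 2 left 6 members called.

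Cx3cr1 was at 23.6, 17.6 and 20 CPM with LPS and bryostatin, below the 49.3 to 55.8 CPM of LPS alone, a difference of -1.37 ± 0.11 (adjusted p = 1.8e-06). Mef2c, a factor that restrains microglial inflammatory responses, was at 72.9, 83.1 and 82.2 CPM, above the LPS libraries (37 to 40.2 CPM) and also above the untreated ones (42 to 52.6 CPM). Its difference from LPS was 1.05 ± 0.1 (adjusted p = 2e-05). Adgrg1 was higher by 0.32 ± 0.08 (adjusted p = 0.019), while Selplg, at 9.52, 11.4 and 10.6 CPM against 13.2 to 15.3 CPM with LPS, was lower by 0.46 ± 0.11 (adjusted p = 0.023). Lpcat2 was lower by 0.37 ± 0.09 (adjusted p = 0.024). Tmem119 (0 ± 0.16), Fcrls (-0.06 ± 0.17), Tgfbr1 (0 ± 0.14), Olfml3 (0.05 ± 0.1) and Sall1 (-0.02 ± 0.09) had differences smaller than their SE. Tmem119 was at 16.2, 17.5 and 13.8 CPM, Sall1 at 43.3, 42.3 and 48.1 CPM and Mertk at 11.1, 11.6 and 10.8 CPM. The first pair overlapped the LPS libraries, while Mertk lay below them without a call (-0.21 ± 0.1, adjusted p = 0.27). Gpr34, at 0.108, 0.103 and 0.216 CPM, and Slco2b1, at 0.538, 0.775 and 0.54 CPM, stayed near 0. Slco2b1 libraries lay just above those of LPS alone but were not called (0.63 ± 0.45, adjusted p = 0.52).

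Of the 13 core members, 5 were called lower with bryostatin under LPS, 12 had a negative change and 10 had all libraries below those of LPS. Over all 32 members 15 lay wholly below and 6 wholly above, against 18% and 17.3% of all genes. Adgre1 went from 406 to 446 CPM with LPS to 282, 262 and 276 CPM (-0.66 ± 0.09, adjusted p = 0.00044). Ptprc was at 39.4, 45.1 and 45.5 CPM against 62.4 to 64.1 CPM (-0.55 ± 0.12, adjusted p = 0.0096). Laptm5 was at 91.2, 86.9 and 80.8 CPM against 115 to 125 CPM (-0.47 ± 0.07, adjusted p = 0.00099). Spi1, at 49.7, 39.3 and 43.9 CPM against 55 to 58.9 CPM, differed by -0.37 ± 0.09 (adjusted p = 0.023), and Cyth4 by -0.35 ± 0.1 (adjusted p = 0.036). Aif1, at 42.6, 41.1 and 38 CPM against 50.8 to 52 CPM, was not called (-0.34 ± 0.11, adjusted p = 0.093), and neither was Runx1, the 1 core member with a positive change (0.39 ± 0.19). Cx3cr1, Mef2c, Laptm5 and Adgre1 kept their call in all 13 alternatives. The astrocyte markers summed to 6850 to 7170 CPM with bryostatin and 8910 to 9440 CPM without. The 6 neuron markers summed to 370 to 383 CPM with bryostatin and 279 to 294 CPM without, with 1 of 5 tested called higher, Tubb3 (0.83 ± 0.09). The part of both in these differences, that of Mef2c included, was not tested.

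Given with LPS and IFN-gamma, bryostatin had fewer calls than with LPS alone, among members and all genes alike. In this setting Cx3cr1 and Mef2c again stood out. With bryostatin 4 of 32 members were called, 3 lower and 1 higher. Of all genes 1.58% were lower, 1.8% higher and 3.38% called either way, against 6.89% called for bryostatin with LPS alone. Libraries lay wholly below for 5 members and wholly above for 5, against 11.2% and 9.23% of all genes. Cx3cr1 was at 9.41, 7.58 and 9.33 CPM against 19.6 to 21.3 CPM without bryostatin (-1.23 ± 0.12, adjusted p = 2.8e-05), the lowest level of any group. Mef2c was at 85.2, 76.6 and 69.3 CPM against 33.8 to 41.4 CPM (1.03 ± 0.1, adjusted p = 3.7e-05). Ptprc (44.6, 33.7 and 38.8 CPM against 47 to 62.1 CPM) and Adgre1 (135, 109 and 125 CPM against 142 to 179 CPM) were lower by 0.48 ± 0.12 and 0.41 ± 0.09 (adjusted p = 0.036 and 0.026). The groups overlapped in neither gene, but their calls were lost in 7 and 6 of 13 alternatives. Tmem119, at 7.8, 6.01 and 6.53 CPM against 3.42 to 4.56 CPM, lay above without overlap and just missed the threshold (0.71 ± 0.19, adjusted p = 0.051). Spi1 (34, 37.5 and 41.4 CPM), Aif1 (28.2, 26.3 and 33.9 CPM), Sall1 (41.9, 42.3 and 38.9 CPM) and Mertk (53.1, 47.6 and 47 CPM) overlapped the libraries without bryostatin and were not called. Gpr34 stayed near 0, at 0.0619, 0 and 0.2 CPM. Without untreated replicate 1 in the fit, 9 members were called, and leaving out replicate 2 or 3 of either group left 2. The astrocyte markers summed to 4810 to 4830 CPM with bryostatin and 6790 to 7320 CPM without, with 3 of 10 called lower. The neuron markers summed to 408 to 428 CPM with bryostatin and 360 to 375 CPM without, with 0 of 5 tested called. The part of both in these differences, that of Mef2c included, was not tested.

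The effect of bryostatin was tested for a difference between these settings. No member was called in the difference of its effects, LPS with IFN-gamma minus LPS alone, where 0.118% of all genes were called, 0.0498% lower and 0.0684% higher. At an unadjusted p under 0.05, 6 members differed, and DESeq2 called 1, Laptm5 (0.4 ± 0.11, edgeR adjusted p = 0.27). For Cx3cr1 the difference was 0.14 ± 0.16 and for Mef2c -0.02 ± 0.15. For Tmem119 it was 0.72 ± 0.25 (adjusted p = 0.5).

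In resting cultures bryostatin raised 3 core members and moved no homeostatic member past the threshold. Of 33 members tested, 3 rose and 0 fell, where 2.11% of all 15604 genes rose, 1.51% fell and 3.62% were called either way. Lmo2 was at 22.4, 33.1 and 31.2 CPM with bryostatin against 14.6, 14.6 and 14.9 CPM untreated (0.97 ± 0.15, adjusted p = 0.0069). Runx1 was at 41.1, 30.4 and 39.9 CPM against 12.2, 20.6 and 21.9 CPM (1.03 ± 0.19, adjusted p = 0.017), its lowest untreated library being the replicate 1 that stands apart. Abi3 was at 8.87, 9.13 and 7.89 CPM against 4.75, 5.12 and 4.96 CPM (0.8 ± 0.16, adjusted p = 0.019). None of the 3 overlapped between groups. Of 13 core members 12 had a positive change (median 0.45, against 0 over all genes), and 8 had all libraries above the untreated ones, as did 9.11% of all genes. Over all members 3 lay wholly below, against 9.27% of all genes. Spi1 was among the 8 at 44, 74.7 and 50.7 CPM against 35.6 to 39.8 CPM, not called (0.57 ± 0.21, adjusted p = 0.15). The 20 homeostatic members had a median of 0, with 0 called by edgeR or DESeq2 and 4 at an unadjusted p under 0.05. Cx3cr1, at 149, 192 and 174 CPM against 192 to 212 CPM, was not called (-0.22 ± 0.13, adjusted p = 0.4), nor was Slco2b1, at 14.4, 18.4 and 19.8 CPM against 23.7 to 30 CPM (-0.59 ± 0.19, adjusted p = 0.11). Gpr34 (14.1, 14 and 19 CPM) and Tmem119 (38.4, 73.9 and 52.9 CPM) overlapped the untreated libraries. So did Sall1 (79.4, 52.4 and 79 CPM against 50.8 to 75.4 CPM), Mertk (31, 26.8 and 35.7 CPM against 19.3 to 31.7 CPM), Ptprc (49.2, 38.7 and 54.9 CPM against 23.6 to 49.7 CPM) and Aif1 (16.3, 28.6 and 21.3 CPM against 23.5 to 35.3 CPM). Without untreated replicate 1, 3 members were called, without the 3 libraries that stand apart by gene length 7, without bryostatin replicate 1 a single one, and with only these 2 groups in the fit none.

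**Figure D3:**
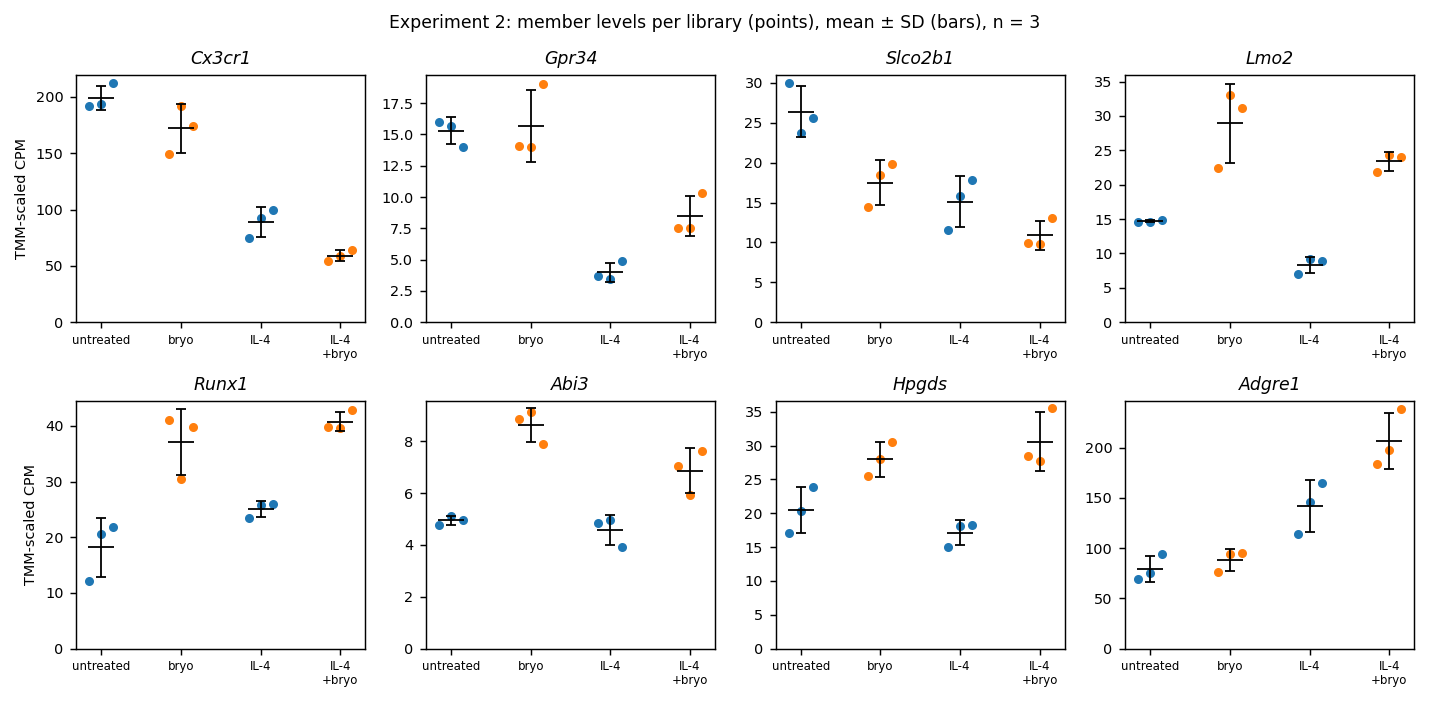
TMM-scaled CPM of 8 members in each library of experiment 2 (points), with the group mean and SD (n = 3); orange points are cultures with bryostatin. Cx3cr1 and Gpr34 are low with IL-4, and the bryostatin libraries of Lmo2, Runx1 and Abi3 lie above their controls in resting and in IL-4 cultures, where with IL-4 only Lmo2 of these 3 was called.

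IL-4 lowered 3 members and raised none. Gpr34 was at 3.67, 3.42 and 4.88 CPM against 16, 15.7 and 14 CPM untreated (-1.94 ± 0.2, adjusted p = 0.00041). Cx3cr1 was at 74.4, 92.7 and 100 CPM against 192, 194 and 212 CPM (-1.16 ± 0.13, adjusted p = 0.00091). Lmo2 was at 7.05, 9.17 and 8.84 CPM against 14.6 to 14.9 CPM (-0.82 ± 0.16, adjusted p = 0.045). All 3 lay below the untreated libraries without overlap, and among all genes 0.0833% were called lower, 0.5% higher and 0.583% either way. Over all members 12 lay wholly below and 3 wholly above, against 10.9% and 12.5% of all genes. Higher calls numbered 0 by edgeR and 1 by DESeq2 (Adgre1), with 5 members at an unadjusted p under 0.05. The 20 homeostatic members had a median of -0.32 and the 13 core members a median of 0, against -0.03 over all genes. Of the 9 homeostatic members with all IL-4 libraries below the untreated ones, 7 were not called, among them Tmem119 (30.2, 46.1 and 43.7 CPM against 53.6 to 73.8 CPM, adjusted p = 0.45), Slco2b1 (-0.81 ± 0.19, adjusted p = 0.12) and Capn3 (-1.23 ± 0.31, adjusted p = 0.17). Siglech summed to 7 counts with IL-4 against 32 untreated (-2.23 ± 0.6, adjusted p = 0.22). Adgre1, at 114, 146 and 165 CPM against 69.2 to 94 CPM, was higher without a call (0.83 ± 0.17, adjusted p = 0.059). Aif1, at 13.8, 16.6 and 18.9 CPM against 23.5 to 35.3 CPM, was lower without a call (-0.79 ± 0.22, adjusted p = 0.24). Sall1 (75.6, 74.3 and 71.3 CPM), Mertk (30.3, 35.3 and 40 CPM), Spi1 (33.6, 48.9 and 49.4 CPM) and Ptprc (33.2, 38.6 and 47.3 CPM) overlapped the untreated libraries. The call of Lmo2 was lost in 8 of 14 alternatives, while Gpr34 and Cx3cr1 kept theirs in each, and 3 members were called without untreated replicate 1. Mrc1, which alternatively activated macrophages are known to raise, rose by 1.93 ± 0.26 in the same cultures.

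Bryostatin given with IL-4 raised Gpr34 from its low level, lowered Cx3cr1 further and raised the core members Lmo2 and Hpgds. It called 4 of 33 members, 3 higher and 1 lower, where 2.7% of all genes were higher, 1.42% lower and 4.13% called either way. Gpr34 was at 7.51, 7.54 and 10.3 CPM against 3.42 to 4.88 CPM with IL-4 (1.08 ± 0.19, adjusted p = 0.012), still below the 14 to 16 CPM of untreated cultures. Cx3cr1 was at 54.4, 59.2 and 63.7 CPM against 74.4 to 100 CPM (-0.59 ± 0.13, adjusted p = 0.028). Lmo2 was at 21.8, 24.3 and 24.1 CPM against 7.05 to 9.17 CPM (1.49 ± 0.16, adjusted p = 0.00094). Hpgds was at 28.5, 27.7 and 35.6 CPM against 15 to 18.2 CPM (0.84 ± 0.15, adjusted p = 0.012). Of 13 core members 12 had a positive change and all libraries above those of IL-4, as did 20.1% of all genes, with a median of 0.55 against 0.01 over all genes. Over all members 3 lay wholly below, against 16.6% of all genes. Aif1, at 13, 14.2 and 16.2 CPM, was the exception (-0.19 ± 0.22). Spi1, at 58.3, 76.5 and 74.9 CPM against 33.6 to 49.4 CPM, and Ptprc, at 58.4, 48.9 and 61.3 CPM against 33.2 to 47.3 CPM, were not called (0.67 ± 0.2 and 0.5 ± 0.24, adjusted p = 0.1 and 0.33). Of the other members given in full, Tmem119 (29.1, 35 and 33.1 CPM), Sall1 (69.3, 55.8 and 66.3 CPM) and Mertk (41.5, 34.6 and 44.8 CPM) were not called. Without the 3 libraries that stand apart by gene length 14 members were called, and without both untreated libraries labelled replicate 1, 8 were. Leaving out IL-4 with bryostatin replicate 3 left a single call, and leaving out IL-4 replicate 1 or 2 left 2.

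Markers of other cells also differed between the groups of experiment 2. The 7 border macrophage markers summed to 79.1 to 98 CPM untreated, 131 to 170 CPM with bryostatin, 140 to 221 CPM with IL-4 and 357 to 519 CPM with both. Mrc1 made up most of the last sum, with 309, 364 and 461 CPM in the cultures with both. The astrocyte markers summed to 12500 to 17400 CPM untreated, 8360 to 10500 CPM with bryostatin, 11500 to 12300 CPM with IL-4 and 8290 to 9420 CPM with both. Their part in the members' changes was not tested. The difference of the bryostatin effect, IL-4 minus no stimulus, called 0 members and 0% of all genes by edgeR and 0 members by DESeq2, with 2 members at an unadjusted p under 0.05. For Gpr34 that difference was 1.04 ± 0.27 (adjusted p = 0.94) and for Lmo2 0.51 ± 0.22 (adjusted p = 0.94).

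**Figure D4:**
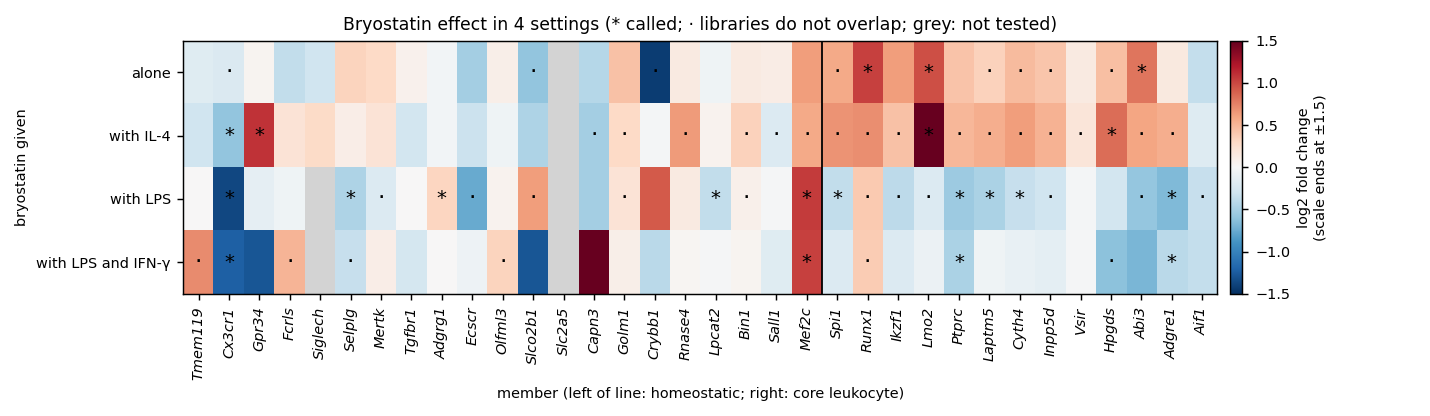
Log2 fold change by bryostatin for each member (columns; homeostatic left, core leukocyte right of the line) in 4 settings (rows); stars are calls, dots mark libraries that do not overlap, and grey was not tested. Core members are mostly red in the upper rows (experiment 2) and mostly blue in the lower rows (experiment 1), and colours end at ±1.5. Cx3cr1 is blue and Mef2c red in all 4, but Cx3cr1 was not called alone and Mef2c was not called in experiment 2.

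Set side by side, the 4 bryostatin comparisons gave Cx3cr1 changes of -0.22 ± 0.13 alone, -0.59 ± 0.13 with IL-4, -1.37 ± 0.11 with LPS and -1.23 ± 0.12 with LPS and IFN-gamma. Mef2c changed by 0.63 ± 0.24, 0.57 ± 0.24, 1.05 ± 0.1 and 1.03 ± 0.1 in the same order. It was not called alone or with IL-4 (edgeR adjusted p = 0.18 and 0.26), and with bryostatin alone its libraries overlapped the untreated ones. Cx3cr1 was not called with bryostatin alone (adjusted p = 0.4). The core median was 0.45 alone, 0.55 with IL-4, -0.35 with LPS and -0.2 with LPS and IFN-gamma. The settings of the 2 experiments were not tested against each other. Adgre1 changed by 0.15 ± 0.17, 0.55 ± 0.17, -0.66 ± 0.09 and -0.41 ± 0.09 in the same order.

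The balance of homeostatic and core members can be read from the ratio of summed homeostatic to summed core CPM in each library. Untreated cultures of experiment 1 had 1.76 to 1.97, LPS 0.59 to 0.624, LPS with bryostatin 0.831 to 0.871, LPS with IFN-gamma 0.759 to 0.801, and all 3 agents 0.894 to 0.962. No group of experiment 1 overlapped another. Without replicate 1 the untreated ratios were 1.95 and 1.97 in experiment 1 and 1.78 and 1.65 in experiment 2. In experiment 2 the ratio was 1.65 to 1.87 untreated, 1.28 to 1.45 with bryostatin, 1.43 to 1.57 with IL-4 and 1.1 to 1.15 with both. Bryostatin thus went with a higher ratio beside LPS, with or without IFN-gamma, and with a lower one in resting and IL-4 cultures. The former settings are all of experiment 1 and the latter all of experiment 2, so setting and experiment cannot be told apart. With LPS the summed homeostatic level was 587 to 606 CPM without and 611 to 637 CPM with bryostatin, while the core sum was 943 to 1020 CPM and 728 to 757 CPM. Mef2c alone went from a mean of 38.4 to 79.4 CPM, more than the homeostatic sum, which went from 594 to 626 CPM. With LPS and IFN-gamma, Mef2c went from 37.8 to 77.1 CPM with bryostatin and the homeostatic sum from 509 to 544 CPM. The homeostatic members without Mef2c were not summed. In resting cultures the homeostatic sum was 1370 to 1460 CPM without and 1280 to 1490 CPM with bryostatin, and the core sum 768 to 855 CPM and 884 to 1160 CPM. Sums weigh the abundant members most, and these values carry no test. With LPS, Adgre1 averaged 430 CPM within a mean core sum of 986 CPM. With LPS and IFN-gamma it averaged 163 of 652 CPM, and in untreated cultures of experiment 1 67.8 of 664 CPM. Ratios without Adgre1 were not computed, so the order of the groups given LPS may rest on this gene.

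**Figure D5:**
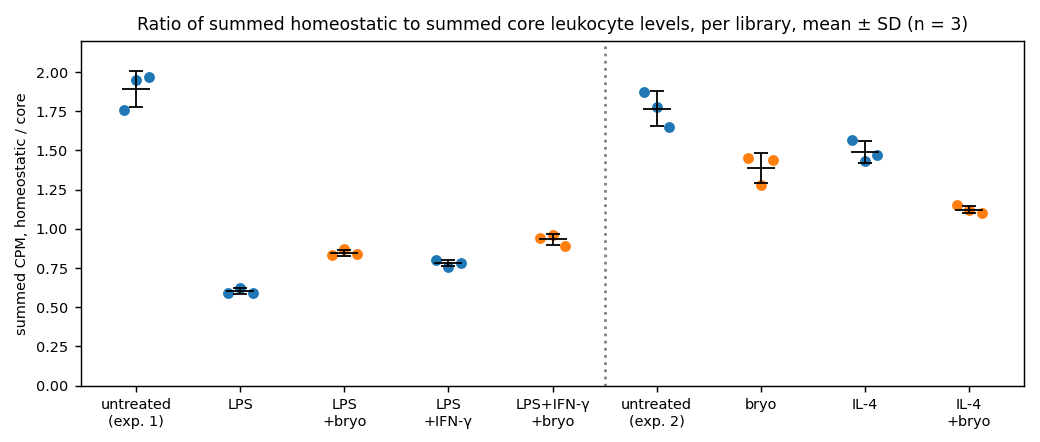
Ratio of summed homeostatic to summed core leukocyte CPM in each library (points), with the group mean and SD (n = 3); orange points are cultures with bryostatin and the dotted line parts the experiments. With Adgre1 in the core sum, LPS gives the lowest ratio, 0.603 ± 0.0183, and untreated cultures the highest, 1.89 ± 0.115 and 1.77 ± 0.111.

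Ligands and growth factors that act on the members were read from a list of 20 genes. With LPS 7 of 20 tested rose and 2 fell, 45% called against 38.4% of all genes, and with IFN-gamma added 8 rose and 5 fell, 65% against 58.1%. Both shares are near those of all genes. Cx3cl1, the ligand of Cx3cr1, was at 48.4, 49.7 and 51.9 CPM untreated, 234, 247 and 250 CPM with LPS, and 535, 468 and 521 CPM with LPS and IFN-gamma. It thus rose by 2.28 ± 0.07 and 3.34 ± 0.07 in the cultures in which its receptor fell. Csf1r, the receptor that microglia need to survive, was at 355, 343 and 356 CPM untreated, 167, 140 and 152 CPM with LPS, and 115, 106 and 108 CPM with both (-1.2 ± 0.08 and -1.68 ± 0.08). Its ligand Il34 rose by 1.33 ± 0.17 with either stimulus. Bryostatin lowered Csf1r by a further 0.54 ± 0.08 with LPS and raised Cx3cl1 by 0.66 ± 0.11 alone and 0.78 ± 0.11 with IL-4. Nrros, which presents TGF-beta to microglia, fell by 0.46 ± 0.17 with LPS and rose by 0.88 ± 0.16 with bryostatin alone and 1.25 ± 0.15 with bryostatin and IL-4. Gas6, a ligand of Mertk, was lower by 0.73 ± 0.08 with bryostatin and LPS than with LPS alone.

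Other microglial genes, a list of 18 with no member in it, were read in the same way. With LPS 4 rose and 12 fell, 88.9% called, where 19.5% of all genes rose, 18.8% fell and 38.4% were called either way. Among those that fell were the purine receptor P2ry12 (-3.2 ± 0.31) and the oxysterol receptor Gpr183 (-5.06 ± 0.54). Itgam, which encodes CD11b, rose by 1.49 ± 0.14 with LPS. With LPS and IFN-gamma 3 rose and 10 fell, 72.2% called, where 29.5% of all genes rose, 28.6% fell and 58.1% were called either way. The list had a median of -0.59 there, against -0.01 over all genes. Irf8, a factor of the interferon response and of microglial identity, was among the 3 that rose (2.49 ± 0.1). Bryostatin with IL-4 raised 8 and lowered none by edgeR, where 2.7% of all genes were higher and 1.42% lower. All 18 changes were positive (median 0.62), and 44.4% were called against 4.13% of all genes. Itgam rose by 1.39 ± 0.14 there and by 1.27 ± 0.14 with bryostatin alone, and P2ry13 rose by 1.04 ± 0.18 after a fall of 1.69 ± 0.18 with IL-4. Bryostatin alone raised 2 of the list and lowered 0, 11.1% called against 3.62% of all genes. Added to LPS it raised 1 and lowered 4, 27.8% called against 6.89% of all genes (list median -0.2). Added to LPS with IFN-gamma it raised 0 and lowered 2, 11.1% called against 3.38% of all genes.

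Reads of overlapping genes cannot be told apart in these unstranded libraries. In GENCODE M21, 70.1% of the exon bases of Abi3 overlap Zfp652 and 41.1% overlap Phospho1 on the opposite strand. For Golm1 29.3% overlap Naa35 on the opposite strand, and for Rnase4 13.4% overlap Ang on the same strand. Exons of 10 members overlap another gene, the rest to a smaller share. Among them are Lpcat2 (8.47%), Slco2b1 (7.91% with Gm15635), Capn3 (7.68% with Ganc, same strand) and Bin1 (6.22%). The values of these 10 members are uncertain to that extent.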

How the data were processed

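Counts of 27 libraries were analysed as the authors deposited them: raw read counts per gene, whole numbers with no normalization, for 54532 annotated genes. The deposited FPKM values, which the authors scaled per gene length and library, served only to order untreated levels between genes. The submitters' processing notes name fastp, STAR, featureCounts and the build mm10. Their versions are not given in the sources used here. Groups follow the labels.

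Each experiment had a model of its own, with a term per group, in edgeR 4.0.16 under R 4.3.3. Low genes were dropped by filterByExpr, libraries scaled by TMM, and contrasts tested with the robust quasi-likelihood F test. Benjamini-Hochberg adjustment ran over all 16073 genes of experiment 1 or 15604 of experiment 2, and adjusted p under 0.05 was called. Levels are CPM scaled by TMM and SEs are the absolute log2 fold change over the root of F. There were 8 group comparisons and 2 differences of effects. In a library 3 counts equal 0.105 to 0.174 CPM.

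All 34 members may be named in every comparison. Tmem119, Cx3cr1, Gpr34, Sall1, Mertk, Spi1, Ptprc and Aif1, and the 6 called members with the largest changes, are given by library. Members, gene lists and tests were chosen with earlier results of these data known. Alternatives were DESeq2 size factors, DESeq2 1.42.0, no filter, a replicate block, only the compared groups, all 27 libraries in 1 fit, each library of the compared groups left out, and without both untreated libraries labelled replicate 1. A set without 3 libraries of experiment 2 that stand apart by gene length was chosen after seeing the data. The test was tried on simulated counts.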

Additional observations from a re-analysis of the deposited data

Results flagged for a closer look

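For 11 members, 10 of them core and 1 homeostatic, every bryostatin library lay on one side of its control in a setting of experiment 2 and on the other side in a setting of experiment 1. The difference between the settings was not tested, since the experiments have separate controls. How many of all genes show such an opposite separation was not counted, so 11 members cannot be called unusual. In a single bryostatin comparison, libraries lay wholly on a given side for 9.11% to 20.1% of all genes. Not every change listed below was called. Against the change with LPS, bryostatin alone gave Abi3 0.8 and -0.58 (log2 fold change alone and with LPS), Cyth4 0.47 and -0.35, Inpp5d 0.42 and -0.3, Laptm5 0.35 and -0.47, Lmo2 0.97 and -0.21, and Spi1 0.57 and -0.37. Slco2b1 had the opposite signs, -0.59 ± 0.19 alone and 0.63 ± 0.45 with LPS, neither called by edgeR (adjusted p = 0.11 and 0.52). With LPS it was near the detection limit, at 0.618 CPM with bryostatin and 0.394 CPM without. With IL-4 and with LPS the values were Abi3 0.59 and -0.58, Adgre1 0.55 and -0.66, Cyth4 0.63 and -0.35, Ikzf1 0.44 and -0.39, Inpp5d 0.52 and -0.3, Laptm5 0.55 and -0.47, Lmo2 1.49 and -0.21, Ptprc 0.5 and -0.55, and Spi1 0.67 and -0.37. Against LPS with IFN-gamma, Adgre1 had 0.55 with IL-4 and -0.41, Ptprc 0.5 and -0.48, and Hpgds 0.84 with IL-4 or 0.45 alone and -0.61.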

How the results depend on the processing

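No direction of a called member was reversed in any alternative run. Numbers of members called moved by over 1.5 times as follows. With IL-4 (3 called) they were 5 with no filter, 6 with DESeq2, 7 with all 27 libraries in 1 fit, and 5 without the 3 libraries that stand apart by gene length. With bryostatin added to IL-4 (4 called) they were 8 without both untreated libraries labelled replicate 1, 10 with DESeq2, 16 with only the compared groups, 11 with all 27 libraries and 14 without the 3 libraries. With bryostatin alone (3 called) they were 0 with only the compared groups, 8 with all 27 libraries and 7 without the 3 libraries. With bryostatin added to LPS (10 called) all 27 libraries gave 6. With bryostatin added to LPS with IFN-gamma (4 called) they were 9 without both untreated libraries labelled replicate 1, 2 with only the compared groups and 2 with all 27 libraries. For the difference of bryostatin effects, LPS with IFN-gamma minus LPS (0 called), DESeq2 gave 1. The cause was not tested. Dropping both untreated libraries labelled replicate 1 left bryostatin with LPS at 13, within 1.5 times. Leaving out 1 library of the compared groups, untreated ones included only where compared, gave 28 to 31 with LPS, 30 to 32 with LPS and IFN-gamma, 14 to 15 between these, 6 to 7 with bryostatin added to LPS, 2 to 4 with LPS and IFN-gamma, 1 to 3 with bryostatin alone, 2 to 3 with IL-4, 1 to 3 with bryostatin added to IL-4, and 0 for both differences. Whether replicate numbers pair the libraries is not settled by their correlations. Same-numbered deviations correlated at a mean r of 0.000244 in experiment 1 and 0.0408 in experiment 2. They ran from -0.509 to 0.53 and from -0.623 to 0.739, and were over 0.1 in 6 of 30 and 8 of 18 pairs. By mean correlation, 9 of 15 and 5 of 12 libraries correlated best with their own number. With a replicate block 29, 31, 14, 10, 4, 3, 4 and 6 members were called in the 8 group comparisons, in the order LPS, LPS with IFN-gamma, these against each other, bryostatin with LPS, with both, alone, IL-4, and bryostatin with IL-4, and 0 in both differences. Depth limits Siglech, Slc2a5, Capn3 and Crybb1 most, which hold few counts.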
